A study of Mus musculus with 14 samples.

Results

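The genes described here make and shape fatty acids: Fasn (UniGene cluster Mm.236443), the stearoyl-CoA desaturases Scd1 (Mm.267377) and Scd2 (Mm.193096), and the elongases Elovl3 (Mm.21806), Elovl5 (Mm.19130) and Elovl6 (Mm.314113). They are 6 of 22221 genes with at least 1 sense tag, and were chosen by name from the accession or title that the deposited files pair with each tag. All 6 were among the 14682 genes that passed the filter on low counts, Elovl3 only through its liver libraries. The series compared 7 tissues of C57BL6 mice, with 1 female and 1 male library from each: bone marrow, hippocampus, liver, pancreas, parotid gland, entire spinal cord and stomach. No treatment, genotype or age is named in the labels, nor is the number of animals per library given. The female liver library is labelled right lobe and the male one left lobe, but the short codes in both labels close with LL. Whether these libraries differ in lobe as well as in sex is therefore uncertain. If they do, lobe and sex cannot be told apart there. RNA was turned into cDNA and cut with the enzyme DpnII, and the 20 bases starting at the GATC site nearest the 3′ end were counted, so that each transcript contributes 1 short tag whatever its length.

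Fatty acid synthase builds palmitate from acetyl-CoA and malonyl-CoA in the cytosol, and is the central enzyme of lipogenesis in liver and fat. The stearoyl-CoA desaturases insert a double bond into palmitoyl- and stearoyl-CoA and so produce palmitoleate and oleate; Scd1 is the form known best from liver and adipose tissue and Scd2 the form known best from brain. The elongases carry out the rate-limiting step of chain extension in the endoplasmic reticulum. Elovl6 extends palmitate to stearate, Elovl5 extends polyunsaturated chains, and Elovl3 makes very long saturated and monounsaturated chains and is known from brown fat, skin and liver.

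Each gene was read mostly through 1 or a pair of tags, which are shown here. The levels below sum all sense tags of a gene, such as 16 for Scd2 and 12 for Scd1, so they include tags that are not shown. The GATC site is in capitals.

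Fasn: GATCccacaattaaactgca
Scd1: GATCtggttgtactgtcaaa
Scd2: GATCtgactgcaaaaaaaaa
Elovl3, first tag: GATCtgcagggggggagcct
Elovl3, second tag: GATCcctgtcagctagctgg
Elovl5: GATCtagaatgtgtgtatgt
Elovl6, first tag: GATCaaggtgttgcctggtg
Elovl6, second tag: GATCtgcagggctctgcctg

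The leading tag held 95.3% of the 7578 Fasn counts, 88.4% of the 13373 Scd1 counts, 74.1% of the 7267 Scd2 counts and 97.6% of the 3186 Elovl5 counts. Elovl3 was split almost evenly, with 465 counts on the first tag and 461 on the second, and Elovl6 had 284 and 191. The leading Scd1 and Scd2 tags differ at 8 of 20 positions, so these tags count the desaturases apart although their coding sequences are alike. The other tags of Scd1 were not compared with those of Scd2. The leading Scd2 tag ends in 9 A, which places its site next to the poly(A) tail. The files title the Scd2 cluster as desaturase 1, while its RefSeq accession belongs to Scd2, and the accession was followed. In the RefSeq annotation of the mouse assembly GRCm38.p6, Scd3, Scd2, Scd4 and Scd1 stand in a row with no other protein-coding gene between them. Scd4 did not pass the filter on low counts, and Scd3 reached at most 5.74 CPM, in the male spinal cord library.

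Between 1922511 and 3460794 gene-assigned counts were available per library, and levels are given as CPM, the count divided by this total and scaled to a common total. The summed levels of the markers of hepatocytes, gastric cells, pancreatic and parotid acinar cells, neurons and oligodendrocytes were highest in the tissues their names call for, although 1 oligodendrocyte marker, Mal, was highest in stomach, at 256 CPM on average, and Alas2, an enzyme of red cell precursors, was highest in bone marrow. A few secretory genes fill the gland libraries: 4 acinar genes took 242270 and 318580 CPM in the female and male pancreas. CPM of every other gene is lowered there, so a second scale with TMM composition factors, which ran from 0.147 in male pancreas to 2.49 in female spinal cord, is given where it changes the place of a tissue that the text describes. A count of 0 allows up to 3 counts, at most 1.56 CPM in any library, and intervals and floors cover counting error only. The p-values rest on the spread between the libraries, and in whole tissue fewer cells of a type and less RNA per cell cannot be told apart.

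**Figure D1:**
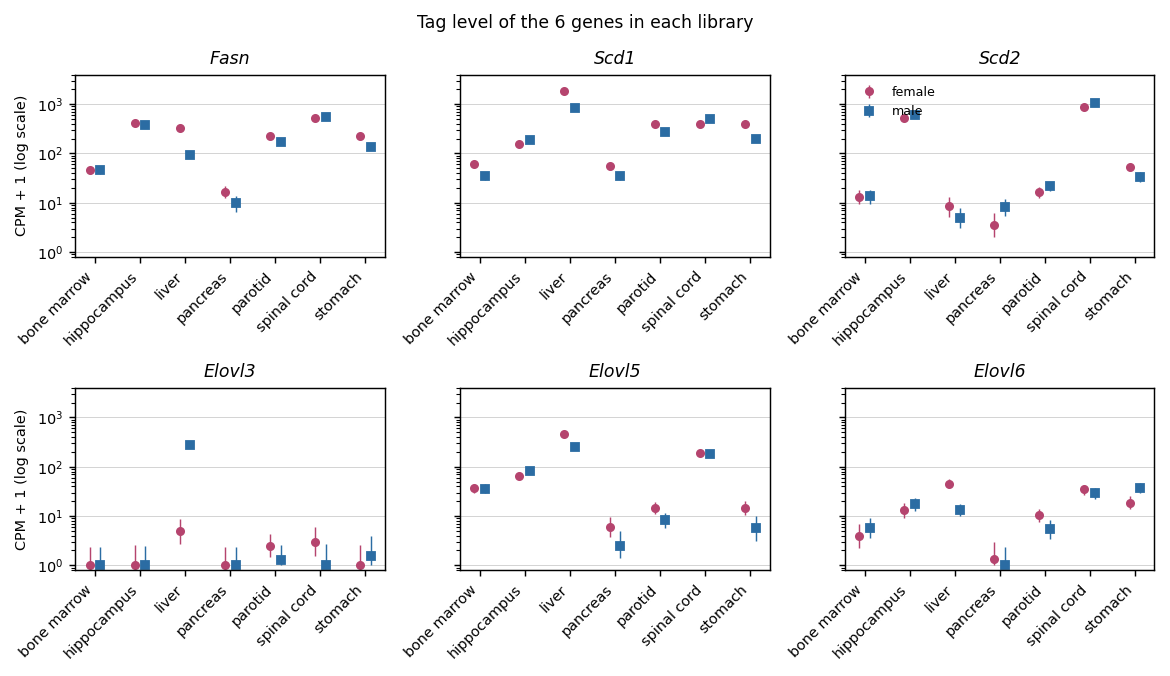
Level of each gene in the female (circle) and male (square) library of the 7 tissues, as CPM + 1 on a log axis with 95% exact Poisson intervals. Scd2 is highest in spinal cord (894 and 1076 CPM), Scd1 is highest in liver, and Elovl3 rises above the floor almost only in male liver, at 274 CPM.

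Fasn was abundant in nervous tissue as well as in liver and glands. Spinal cord gave 533 CPM in its female library against 548 in its male one, and hippocampus 408 and 383. Liver gave 324 and 90.7, parotid 229 and 169, and stomach 221 and 136. Bone marrow was low, at 44.7 and 45.1, and pancreas lowest, at 15.9 and 8.67. The order by mean CPM was spinal cord (540.2 ± 10.4, SD, n = 2), hippocampus (396 ± 17.4), liver (207 ± 165), parotid (199 ± 42.5), stomach (178 ± 59.6), bone marrow (44.9 ± 0.294) and pancreas (12.3 ± 5.11). Liver overlapped parotid and parotid overlapped stomach, while the other neighbours stood apart. On the TMM scale parotid came first, at 356 ± 77.4, and its libraries lay above all 12 others; spinal cord, liver, hippocampus and stomach then overlapped from one to the next, pancreas stood apart below them at 72.7 ± 19.6, and bone marrow was lowest at 30.7 ± 0.941.

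Scd1 was the most abundant member, and liver was its highest tissue on both scales. It reached 1873 CPM in female liver and 849 CPM in male liver. Spinal cord held 391.7 and 489, parotid 401 and 278, stomach 400.0 and 195, and hippocampus 156 and 183. Bone marrow, at 61.2 and 34.1, and pancreas, at 54.2 and 33.9, overlapped as the lowest. Both liver libraries lay above every other library, with a mean 3.09 times that of spinal cord. With TMM factors parotid moved to the second place (607 ± 159), pancreas to the third (263 ± 45.8) and spinal cord to the fifth (180.2 ± 32.1), and bone marrow alone was lowest (32.9 ± 14.3).

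Scd2 had nearly the opposite pattern. Its CPM was 894 and 1076 in the female and male spinal cord and 519.8 and 602 in hippocampus. The next tissue, stomach, held 52.4 and 32.8, so that hippocampus lay 13.2 times above it by CPM and 7.52 times on the TMM scale. Parotid held 15.5 and 20.5, bone marrow 12.1 and 12.5, liver 7.44 and 3.93, and pancreas 2.53 and 7.17. The nervous tissues were the 2 highest on both scales and did not overlap each other. On the TMM scale stomach (33.1 ± 12.8), parotid (32.2 ± 6.23) and pancreas (31.2 ± 24.6) overlapped, and liver alone was lowest (5.33 ± 1.39). In liver the leading tag was seen once in the female library and never in the male one, and 14 and 13 counts came from other tags of the cluster, so the liver level by the leading tag alone is at the floor.

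Because the desaturases share substrates, their split was read as the share of Scd1 in the summed counts. Scd1 made up 99.6% (95% Clopper-Pearson interval 99.3 to 99.8) of the pair in female liver and 99.5% (99.2 to 99.8) in male liver. The share was 96.3% and 93.1% in parotid, 95.5% and 82.6% in pancreas, 88.4% and 85.6% in stomach, and 83.5% and 73.2% in bone marrow. It fell to 30.5% (28.7 to 32.3) and 31.2% (29.7 to 32.9) in spinal cord and 23.1% and 23.3% in hippocampus. The 4 nervous libraries lay below all 10 others, and within spinal cord the intervals of the female and male libraries overlapped. The share needs no scaling between libraries. The summed level of both desaturases was 1286 and 1565.5 CPM in spinal cord, 676 and 785 in hippocampus, and 1880.2 and 853 in liver. On the TMM scale the sums were 517 and 649 in spinal cord and 299 and 348 in hippocampus, against 1596 and 944 in liver, 747 and 532 in parotid, 309 and 279 in pancreas and 363 and 167 in stomach. The place of the nervous tissues in the sum therefore depended on the scale.

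Elovl5 was highest in liver, at 457 CPM in female and 247 in male liver, and next in spinal cord, at 189 and 182. Hippocampus held 64.9 and 79.9 and bone marrow 35.5 and 35.2. Parotid (13.7 and 7.22), stomach (13.9 and 4.68) and pancreas (5.06 and 1.51) were low, and each overlapped its neighbour in the order. The 4 highest tissues kept this order on both scales, although bone marrow overlapped pancreas on the TMM scale. There pancreas (18.9 ± 12.2) and parotid (18.8 ± 8.31) overlapped. Stomach had the lowest mean (7.28 ± 5.45) and stood apart from parotid. It overlapped pancreas, since female stomach (11.1) lay above male pancreas (10.2).

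Elovl6 was rare everywhere, with 507 counts over the 14 libraries. Its CPM was 33.7 and 28.2 in spinal cord, 44.2 and 12.4 in liver, and 17.8 and 35.9 in stomach, and these tissues overlapped. On the TMM scale spinal cord (12.6 ± 1.31) came after liver and stomach and stood apart from stomach, and parotid (12.2 ± 6.39) overlapped spinal cord and stood apart above hippocampus (6.30 ± 1.26). By CPM hippocampus held 12.2 and 16.2, parotid 9.35 and 4.33, bone marrow 2.93 and 4.77, and pancreas 1 count in the female and none in the male library.

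Elovl3 was a gene of male liver in these libraries. It had 907 counts there (274 CPM, 95% exact Poisson interval 257 to 293) and 8 in female liver (3.97 CPM, 1.71 to 7.82). The first tag gave 452 and 7 of these, and the second 455 and 1, so both showed the difference. The other 12 libraries held 11 counts in all: 5 and 1 in parotid, 4 in female spinal cord and 1 in male stomach. Bone marrow, hippocampus and pancreas had none in either library. A floor of 3 counts is 1.26 CPM in the shallowest of those 6, female hippocampus, where the 95% exact Poisson interval reaches 1.55 CPM.

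The 3 elongases thus made up different mixtures. Elovl5 supplied 90.5% of their counts in female liver, 84.1% and 86.6% in spinal cord, 84.2% and 83.1% in hippocampus and 92.4% and 88.1% in bone marrow. In male liver Elovl3 supplied 51.4% (49.0 to 53.7) and Elovl5 46.3% (44.0 to 48.7). By the leading tag of each gene alone these were 35.8% (33.2 to 38.6) and 62.5% (59.8 to 65.2), so which elongase led in male liver depended on the tags counted. With all tags Elovl6 held 56.2% (44.1 to 67.8) in female and 87.3% (78.0 to 93.8) in male stomach, the only tissue where it had the largest share in both libraries. By the leading tags it held 43.9% (30.7 to 57.6) in female stomach, where Elovl5 led with 56.1% (42.4 to 69.3), and 69.7% in male stomach. In parotid Elovl5 and Elovl6 were nearer to each other, at 56.0% and 38.1% in the female library. The male pancreas had 4 elongase counts in all, too few for a share.

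**Figure D2:**
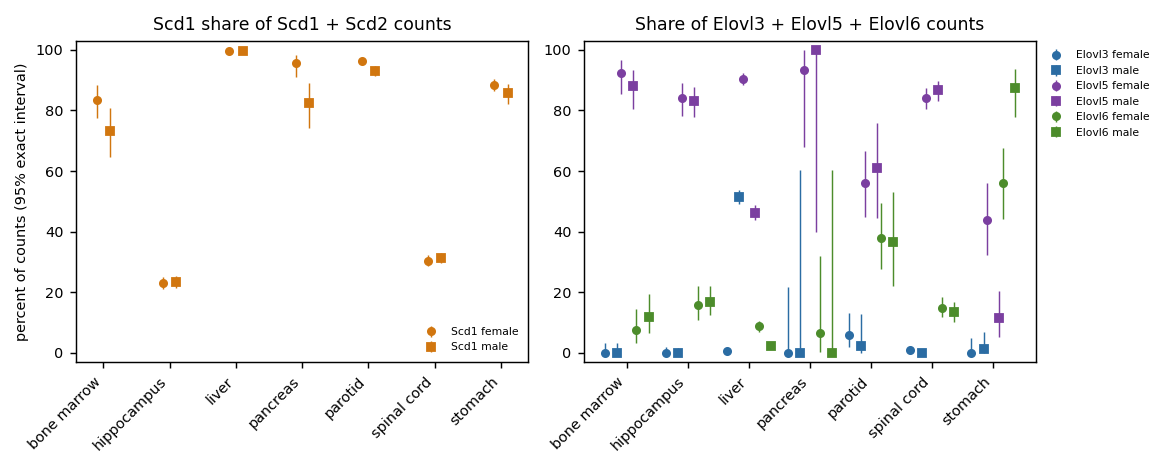
Left, percent of the Scd1 and Scd2 counts of a library that belong to Scd1; right, percent of the Elovl3, Elovl5 and Elovl6 counts that belong to each. Circles are female and squares male libraries, with 95% Clopper-Pearson intervals; the Scd1 share lies between 23.1% and 31.2% in the 4 nervous libraries and above 73% in the other 10.

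Each tissue was then set against the mean of the other 6 in 1 fit over all genes (edgeR's quasi-likelihood test with tissue and sex terms). A gene was called at a Benjamini-Hochberg adjusted p under 0.05 over all tested genes and a fold of at least 2. Folds are on the TMM scale and as log2 ± SE. This SE is the absolute fold divided by the square root of the test's F statistic, not an error given by the fit.

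In liver 4 members were called higher and 1 lower, where 18.5% of all genes were called higher and 10.1% lower. Elovl5 rose by 3.83 ± 0.26 (adjusted p = 4.07e-10) and Scd1 by 2.96 ± 0.25 (adjusted p = 1.61e-08). Elovl6 rose by 1.98 ± 0.40 (adjusted p = 0.000708), a call that was lost without the female library (1.09 ± 0.54, adjusted p = 0.195). Elovl3 was called with adjusted p = 9.21e-07. Its level there, 139 ± 191 CPM (SD, n = 2), came almost wholly from the male library. Elovl3 passed the filter on low counts only through the liver libraries, so the filter and the call rest on the same libraries. Scd2 fell by 3.36 ± 0.46 (adjusted p = 8.91e-06). Fasn differed by 0.47 ± 0.29 and was not called (adjusted p = 0.262).

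Genes of the surrounding pathway were counted next. Of 11 tested genes that supply acetyl-CoA, malonyl-CoA and NADPH or regulate that supply, 9 were called higher and none lower, with a median log2 fold of 2.01 against -0.16 over all genes. Thrsp, a lipogenic nuclear protein, led them at 429 and 220 CPM (3.82 ± 0.25, adjusted p = 2.12e-10), while Acly, which makes cytosolic acetyl-CoA, held 194 and 78.9 CPM and was not called (0.83 ± 0.33, adjusted p = 0.0622). Of 13 regulators 8 were called higher and none lower, with Insig2, a retention factor of the SREBP pathway, at 307 and 350.1 CPM (4.46 ± 0.23, adjusted p = 8.17e-12). Of 11 genes of fatty acid activation and glycerolipid synthesis 7 were called higher and 1 lower; Lpin1, a phosphatidate phosphatase, was the most abundant, at 522 and 517 CPM (3.83 ± 0.29, adjusted p = 3.05e-09). Of 8 other desaturases and hydroxylases 3 were called higher and 1 lower, led by the polyunsaturated fatty acid desaturase Fads1 at 320 and 134 CPM (3.87 ± 0.28, adjusted p = 1.41e-09). Of 10 other elongases and enzymes of the elongation cycle 5 were called higher and 1 lower, with Tecr, the last enzyme of the cycle, at 168 and 220.4 CPM (1.29 ± 0.33, adjusted p = 0.00462). All 6 hepatocyte markers were called higher. Of 6 tested adipocyte markers 1 was called higher and none lower: Car3, which is also a hepatocyte gene, made up 1944 of 1961 CPM of the list's sum in female liver and 3072 of 3095 in male liver. Plin1 and Retn were at 0 in both libraries, Fabp4 held 14.4 and 16.9 CPM, Cidec 1.49 and 2.42, Adipoq 0.992 and 0.302, and Cfd 0 and 3.02; their part in the liver levels was not tested.

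**Figure D3:**
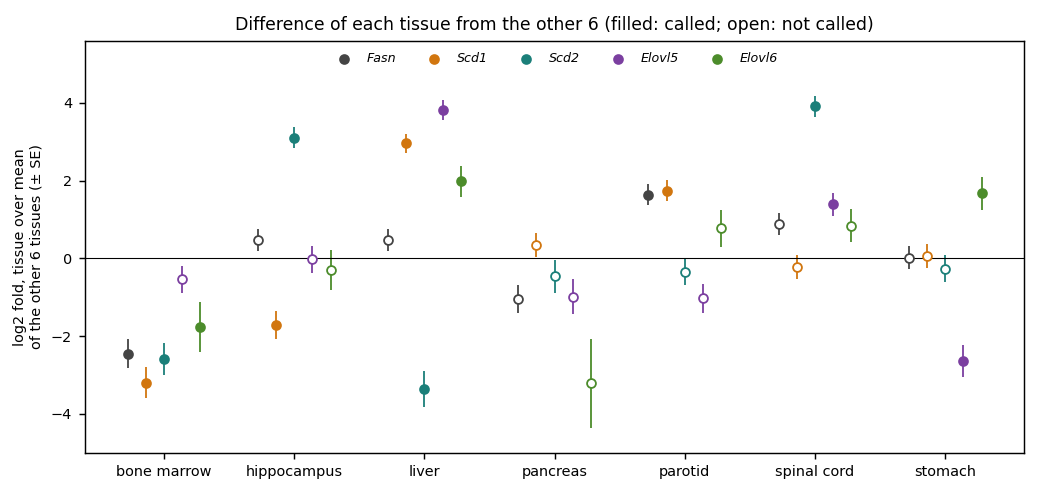
Log2 fold of each tissue over the mean of the other 6 on the TMM scale, with SE, for the 5 members that had counts in nearly every library; filled points were called and open ones were not. Liver and the nervous tissues oppose each other for Scd2 (-3.36 in liver, 3.91 in spinal cord).

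In spinal cord 2 members were called higher and none lower, where 27.3% of all genes were called higher and 8.67% lower. Scd2 rose by 3.91 ± 0.26 (adjusted p = 1.12e-09). Elovl5 rose by 1.39 ± 0.29 (adjusted p = 0.000786), which was lost without the male library (1.11 ± 0.44, adjusted p = 0.0732). Fasn was 0.88 ± 0.28 higher, with an adjusted p of 0.0163 but under the 2-fold limit, and passed without the female library (1.20 ± 0.42, adjusted p = 0.0375). Scaling by library totals in place of TMM called Fasn (2.05) and Elovl6 as well, so 4 members, where 8381 of 14682 genes were called higher. Hippocampus had 1 member higher and 1 lower, where 28.0% of genes were called higher and 12.9% lower. Scd2 rose by 3.10 ± 0.27 (adjusted p = 2.12e-08). Scd1 fell by 1.70 ± 0.36 (adjusted p = 0.000664), a call lost under library totals (-0.55, adjusted p = 0.167) and without the female hippocampus library (-1.29, adjusted p = 0.0692).

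Among the other desaturases and hydroxylases of nervous tissue, Fa2h, which adds the hydroxyl group of myelin galactolipids, held 154 and 167 CPM in spinal cord (6.41 ± 0.40, adjusted p = 4.10e-09), and in hippocampus 34.1 and 33.2 (3.93 ± 0.52, adjusted p = 1.45e-05). Of the other elongases and cycle enzymes, 5 of 10 were called higher in spinal cord and none lower, and 3 higher and 1 lower in hippocampus. Tecr was the most abundant of those called in spinal cord, at 388 and 518 CPM (1.26 ± 0.32, adjusted p = 0.00439). Of the 8 other desaturases 3 were called higher in spinal cord and 2 in hippocampus, with none lower in either. Of 11 supply genes 2 were called higher and 1 lower in spinal cord, and 1 lower in hippocampus; of 13 regulators 1 was called lower in spinal cord and 2 in hippocampus. Under library totals these turned to 6 supply genes and 5 regulators higher and none lower in spinal cord, and in hippocampus to 4 supply genes higher and 1 lower and 3 regulators higher and none lower. The same scaling called 8 of the 8 other desaturases higher in spinal cord and 7 in hippocampus, and 6 and 5 of the 10 other elongation genes, with none lower. Over all genes it called 8381 of 14682 higher and 241 lower in spinal cord. In hippocampus it called 7884 higher and 572 lower. Acsl6, a long-chain acyl-CoA synthetase of brain, led the activation genes at 248 and 188 CPM in spinal cord (7.21 ± 0.51, adjusted p = 7.08e-09), where 2 of 11 were called higher and 4 lower, or 5 and 2 under library totals. All 9 oligodendrocyte markers were called higher in both tissues, with sums of 18719 and 18482 CPM in spinal cord and 4444 and 4823 in hippocampus. All 4 neuron markers were called higher in both as well, with sums of 6102 and 5714 CPM in spinal cord and 4489 and 4420 in hippocampus. The part of either list in the level of Scd2, Fasn or Elovl5 was not tested. The 2 brown adipocyte markers Ucp1 and Cidea were also called higher in spinal cord, at summed levels of 59.6 CPM in female and 16.7 in male spinal cord. So were the 3 tested of 4 skeletal muscle markers, with sums of 127 and 343 CPM, none of the 4 being at 0. Cidea was called higher in hippocampus too (2.98 ± 0.598, adjusted p = 0.000595), while Ucp1 was not. Of 6 tested adipocyte markers none was called higher in spinal cord and 1 lower, Fabp4 (-2.18 ± 0.609, adjusted p = 0.00756). The part of these lists was not tested.

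Hippocampus and spinal cord were also compared with each other. None of the 6 members was called by edgeR, where 6.38% of all genes were, and 2 had an unadjusted p under 0.05. Scd1 was 1.27 ± 0.41 lower in hippocampus (adjusted p = 0.0778) and Elovl5 1.22 ± 0.41 lower (adjusted p = 0.0956). DESeq2 called 1 member, Scd1 (-1.25, adjusted p = 0.0359), where it called 722 of 14682 genes. Without the female or without the male stomach library the edgeR folds were -1.26 for Scd1 and -1.22 for Elovl5. Scd2 differed by -0.69 ± 0.42 (adjusted p = 0.434) and Fasn by -0.35 ± 0.39 (adjusted p = 0.737). Of the 9 oligodendrocyte markers 6 were called lower in hippocampus, with Mbp, the main myelin protein gene, at -2.10 ± 0.52 (adjusted p = 0.0178), and so was Fa2h (-2.13 ± 0.40, adjusted p = 0.00382). Of the 4 neuron markers 1 was called lower there and none higher.

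In parotid 2 members were called higher and none lower, where 11.1% of genes were called higher and 3.86% lower. Scd1 rose by 1.74 ± 0.27 (adjusted p = 0.000121) and Fasn by 1.64 ± 0.26 (adjusted p = 0.000169). Under library totals their folds were 0.97 and 0.86, under the 2-fold limit, and Scd2 and Elovl5 were called lower instead. Over all genes 2361 of 14682 were then called lower and 829 higher. Elovl5 was -1.03 ± 0.37 (adjusted p = 0.0678) and was called lower also by DESeq2 (adjusted p = 0.0228), which called 843 of 14682 genes lower. Its edgeR fold was -0.861 without the female and -1.1 without the male stomach library. Of the supply genes 5 of 11 were called higher and 1 lower, or 3 and 1 under library totals: Thrsp held 119 and 80.9 CPM (2.93 ± 0.26, adjusted p = 8.93e-08), and Acly 68.7 and 63.9 (0.81 ± 0.33, adjusted p = 0.115). Of 8 other desaturases 3 were called lower and none higher, the most abundant being the dihydroceramide desaturase Degs1 at 16.7 and 16.2 CPM (-1.86 ± 0.32, adjusted p = 0.000356). Of 10 other elongation genes 3 were called lower and 1 higher. All 6 tested adipocyte markers were called higher in parotid, with a summed level of 1009 CPM in female and 502 in male parotid, and so were both brown adipocyte markers; Ucp1, which defines brown fat, held 131 and 36.7 CPM. The 3 tested skeletal muscle markers were called higher too, with sums of 139.7 and 191 CPM. The part of these lists in the Fasn and Scd1 levels was not tested. Fasn and Scd1 were 1.36 and 1.45 times higher in the female than in the male parotid library.

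In stomach 1 member was called higher and 1 lower, where 17.9% of genes were called higher and 3.93% lower. Without the female stomach library the count of all genes called went from 3208 to 5106, and of those called lower from 577 to 1749. Elovl6 rose by 1.67 ± 0.41 (adjusted p = 0.00569), a call that rested on the male library (0.92 ± 0.41, adjusted p = 0.0858 without it). Elovl5 fell by 2.64 ± 0.42 (adjusted p = 8.30e-05). The stomach libraries differed widely between themselves: the 4 gastric markers summed to 87345 CPM in female and 238780 in male stomach. Markers of other cells were called higher there as well: 4 of 4 pancreatic acinar genes (sums of 1714.5 and 1575.5 CPM), 4 of 6 tested adipocyte genes (304 and 164) and 3 of 3 tested skeletal muscle genes (11.7 and 123, with 2 of 4 at 0 in the female library). Their part in the members' levels was not tested. The leading Fasn tag held 99.0% of Fasn counts in female and 80.9% in male stomach, and the leading Elovl6 tag 61.0% and 33.3%. Among other elongases and cycle enzymes 4 of 10 were called higher and none lower, led by Elovl1, which extends saturated very long chains, at 61.1 and 215 CPM (2.30 ± 0.30, adjusted p = 8.57e-06). Of other desaturases and hydroxylases 3 of 8 were called higher and 1 lower, with Fa2h at 71.1 and 153 CPM (6.79 ± 0.40, adjusted p = 2.20e-09). Supply genes gave 3 higher and 1 lower of 11, regulators 3 and 1 of 13, and activation genes 4 and 2 of 11. Under library totals 5 supply genes and 6 regulators were called higher and none lower, where 3991 of 14682 genes were called higher.

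Bone marrow was the tissue with most members down: 4 were called lower and none higher, where 14.3% of genes were called lower and 19.6% higher. The log2 fold was -3.19 ± 0.40 for Scd1 (adjusted p = 3.59e-06), -2.59 ± 0.41 for Scd2 (adjusted p = 5.79e-05) and -2.45 ± 0.36 for Fasn (adjusted p = 2.59e-05). Elovl6 fell by 1.76 ± 0.64 (adjusted p = 0.0381), from 8 and 13 counts, and was not called without either bone marrow library, without the female pancreas library, under library totals or with the leading tag alone (-1.07, adjusted p = 1). Elovl5 was -0.54 ± 0.34 and not called (adjusted p = 0.258). Of the supply genes 7 of 11 were called lower and none higher, and Mlycd, which breaks malonyl-CoA down, was the most abundant of them at 13.2 and 18.7 CPM (-1.57 ± 0.31, adjusted p = 0.000532). Under library totals 3 supply genes were called lower, where 1212 of 14682 genes were. Of regulators 6 of 13 were lower and 1, Pparg, higher, at 26.7 and 40.0 CPM (1.80 ± 0.53, adjusted p = 0.0114). Of 8 other desaturases and 11 activation genes, 3 each were called lower and none higher. Of 10 other elongation genes 1 was higher and 1 lower. Under library totals these were 1 higher and 1 lower, 4 and 1, and 2 and 0. Of 6 tested adipocyte markers 2, Adipoq and Fabp4, were called higher and 1, Car3, lower. Their sums were 135 CPM in female and 121 in male bone marrow, and their part was not tested.

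In pancreas edgeR called none of the 6 members, where 6.33% of genes were called higher and 3.24% lower; 3 members had an unadjusted p under 0.05 (Fasn, Elovl6 and Elovl5) and DESeq2 also called none. Fasn was -1.04 ± 0.35 (adjusted p = 0.0723), Elovl6 -3.21 ± 1.14 (adjusted p = 0.0905), Elovl5 -0.98 ± 0.44 (adjusted p = 0.204), Scd2 -0.46 ± 0.42 and Scd1 0.35 ± 0.31. The result changed with the scaling: under library totals 5 members were called lower, Fasn at -3.83, and Scd1 turned from 0.35 to -2.45 (adjusted p = 1.97e-05), and the all-gene median went from -0.59 to -3.05. Of the related genes 1 was called higher and 2 lower among 11 supply genes, 1 and 1 among 13 regulators, 1 and 3 among 11 activation genes, 1 and 1 among 10 other elongation genes, and none among 8 other desaturases. Under library totals none was called higher, and 11, 11, 10, 7 and 5 were called lower in these lists, in this order. Over all genes 10115 of 14682 were then called lower and 213 higher. Of 6 tested adipocyte markers 4 were called higher in pancreas and none lower, or 2 and 1 under library totals. Their sums were 82.4 CPM in female and 67.9 in male pancreas, and their part in the members' levels was not tested. Leaving out single libraries gave between 0 and 3 calls, with 3 without the male stomach library, 2 without the female stomach library and 1 without the female hippocampus or the male liver library.

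**Figure D4:**
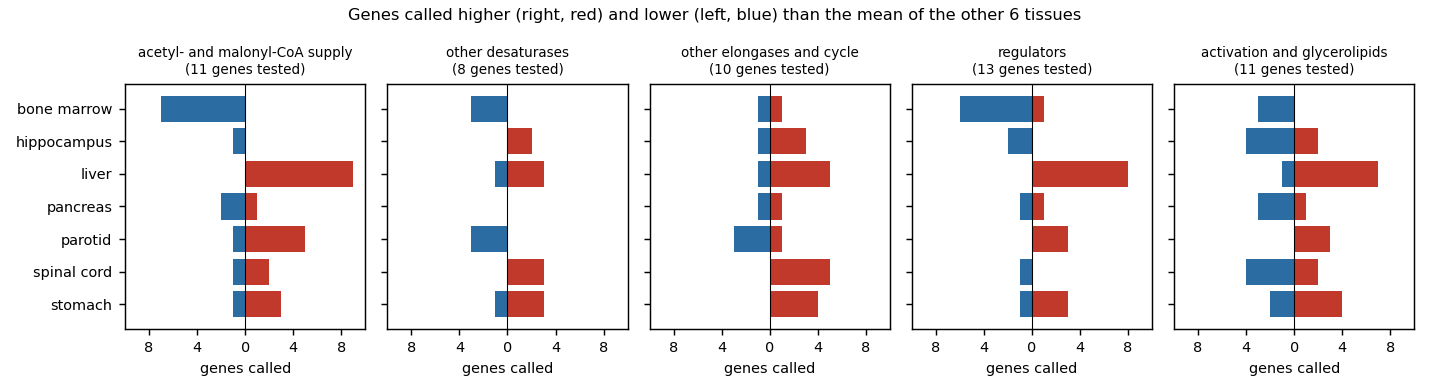
Number of genes called higher (right) and lower (left) than the mean of the other 6 tissues in 5 lists of related genes, by tissue, on the TMM scale. On this scale liver has most calls to the right, such as 9 of 11 supply genes, and bone marrow most to the left, such as 7 of 11. Under library totals pancreas has more to the left, with 11 of 11, where 10115 of 14682 genes were called lower.

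Male and female libraries were compared over the 7 tissues and within liver and parotid. Over the 7 tissues edgeR called none of the 6 members, where 0.0613% of genes were called. Fasn was 0.47 ± 0.21 lower in males (unadjusted p = 0.0409), Scd1 0.45 ± 0.22 lower (unadjusted p = 0.0591) and Elovl5 0.46 ± 0.24 lower (unadjusted p = 0.0730), all with an adjusted p of 1. By CPM the female library was the higher in 5 of 7 tissues for Fasn and Scd1 and in 6 of 7 for Elovl5. Elovl3 had an unadjusted p of 0.0318 and was called without the filter on low counts (adjusted p = 0.000985) and without either stomach library. Of its 926 counts 907 lay in male liver. By CPM the male library was the higher in 2 tissues, liver and stomach, and the female one in 2, parotid and spinal cord. The Elovl3 result over the 7 tissues is therefore not a difference shared across tissues.

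In liver Elovl3 was called higher in the male library, by 6.48 ± 0.87 on the log2 scale (adjusted p = 0.0323), where 0.0204% of genes were called. The CPM ratio was 69.1, with a counting interval of 34.9 to 161 (Clopper-Pearson). A pair of 1 male and 1 female library has no spread of its own, and was assumed to vary like the pairs of the other tissues. Elovl3 passed the filter on low counts only through this liver pair. The call was made under every alternative that could be run except the leading tag alone, where Elovl3 did not pass the filter on low counts. The difference between liver and the other 6 tissues in the male over female ratio gave Elovl3 an adjusted p of 0.131 with edgeR, where 0.00681% of genes were called, and 2 members (Elovl3 and Elovl6) had an unadjusted p under 0.05. DESeq2 gave Elovl3 1.21e-06. It was 5.36e-12 without the female and 5.60e-12 without the male stomach library.

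The other members were lower in male liver and were not called. Fasn gave 324 CPM against 90.7 in female and male liver, a ratio of 3.57 (counting interval 3.11 to 4.11), and a log2 fold of -1.45 ± 0.52 (unadjusted p = 0.0127, adjusted p = 1). Elovl6, at 44.2 and 12.4 CPM, differed by -1.45 ± 0.65 (unadjusted p = 0.0399, adjusted p = 1). Scd1 differed by -0.76 ± 0.59, Scd2 by -0.53 ± 0.78 and Elovl5 by -0.50 ± 0.60. Without the female stomach library 3 members were called, Fasn (-1.46, adjusted p = 3.26e-05) and Elovl6 (-1.45, adjusted p = 0.0119) beside Elovl3, and without the male one Fasn had adjusted p = 3.38e-05 and Elovl6 0.0132; leaving out single libraries moved the count of all genes called from 3 to between 10 and 283. The summed hepatocyte markers were 75846 CPM in female and 65130 in male liver. Alas2, of red cell precursors, held 7.94 CPM in female and 67.4 in male liver (3.46 ± 0.70, adjusted p = 0.163), and its part in these differences was not tested. Elovl2, an elongase of polyunsaturated chains chosen here after its values were seen, also had fewer counts in male liver, at 58.6 and 6.65 CPM (-2.75 ± 0.71, adjusted p = 0.630). It was called without the female (adjusted p = 3.1e-05) or the male stomach library (adjusted p = 2.68e-05), and with both strands summed its fold was -1.28 (adjusted p = 1).

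In parotid no member was called between the sexes, where 0.00681% of genes were called, and none had an unadjusted p under 0.05. Fasn differed by -0.45 ± 0.58 and Scd1 by -0.54 ± 0.61. The male minus female difference in parotid against that in the other 6 tissues gave no member either, where 0.00681% of genes were called, and 1 member, Elovl3, had an unadjusted p under 0.05, from 5 and 1 counts. In stomach the male library held less Fasn (221 against 136 CPM), Scd1 (400.0 against 195) and Scd2 (52.4 against 32.8) but more Elovl6 (17.8 against 35.9); these were not tested within the tissue.

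**Figure D5:**
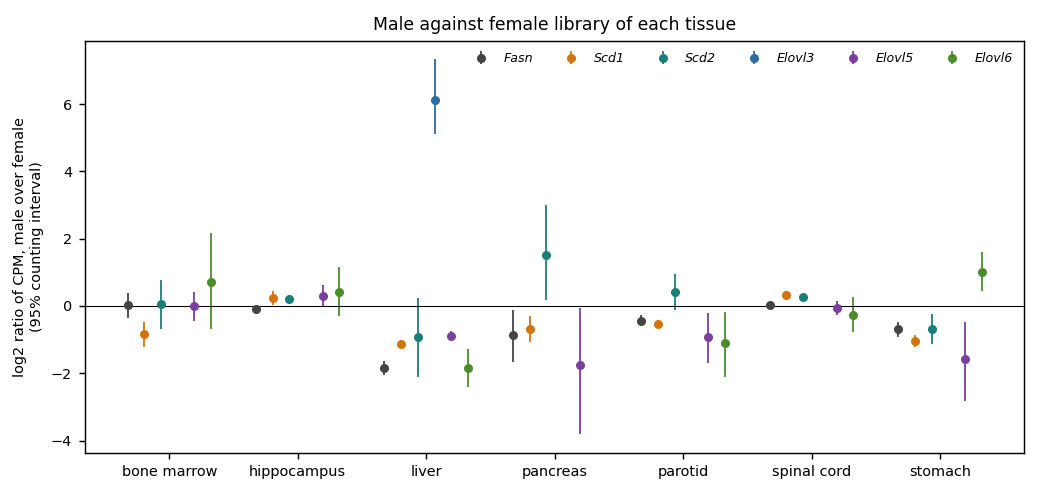
Log2 ratio of CPM in the male over the female library of each tissue, with 95% counting intervals, for genes with at least 10 counts in the pair. Elovl3 in liver stands alone at 6.11, and Fasn in liver lies at -1.84.

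The genes whose pattern was most like that of each member were found by Pearson correlation of log2(CPM + 1) over the 14 libraries, among 5193 tested genes with a mean of at least 20 CPM; the libraries share their depth and composition, so these are descriptions. Nearest to Fasn were Dag1 (r = 0.97), Sorbs3 (0.96) and Irf2bpl (0.96), and to Scd1 Sdc4 (0.95), Pcca (0.94) and Ivd (0.92). Nearest to Scd2 were Mm.151594, titled RIKEN cDNA 2300002D11 gene (0.99), Tceal1 (0.98) and Mm.36501, titled Microtubule-associated protein 1 A (0.98). Nearest to Elovl5 were Il1rap (0.98), Glud1 (0.97) and Gas2 (0.97), and to Elovl6 Glul (0.96), Wasl (0.96) and Lrp6 (0.96). Nearest to Elovl3 were C6 (0.93), the untitled cluster Mm.381401 (0.91) and Mup20 (0.89), the last from a family of near-identical genes whose tags may be shared. Among the members themselves Fasn and Elovl6 were most alike (0.88 by CPM, 0.65 on the TMM scale), and Scd1 and Scd2 were not (0.20 by CPM, -0.26 on the TMM scale).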

How the data were processed

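Per the labels' protocols, 20-base signatures next to DpnII sites were sequenced in 14 libraries (massively parallel signature sequencing). The deposited values are raw counts per distinct tag, with an accession, title, UniGene cluster and class code that the authors assigned; no aligner or genome build is named in the sources used here. Codes 1 to 4 were taken as the sense strand and 11 to 16 as the reverse strand. The legend is not given, so this is an assumption. Counts of codes 1 to 4 were summed per cluster; 12099 of 22221 genes were named through RefSeq accessions and 6 by title, and promoters or proteins were not used here.

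Tests used edgeR 4.0.16 in R 4.3.3 (TMM, filterByExpr by tissue, quasi-likelihood F test over 14682 genes, 6 residual degrees of freedom; 5 where 1 tissue has its own sex term), and DESeq2 1.42.0 as an alternative. A shared fit was used because a tissue has 2 libraries, and p-values measure only the spread between these libraries. In simulated counts for the liver comparison on 14682 genes, 100 of 100 genes with a 4-fold and 32 of 100 with a 2-fold change were called. There were 5 false calls. Only genes above a minimum mean level were changed. Each gene had the same mean in every tissue before the change, and all genes had the same spread. The real tissues differ widely and genes differ in spread, so these rates need not hold here, least of all for rare or variable members. Elovl6 in pancreas, at a fitted 9.28-fold decrease, was not called (adjusted p = 0.0905). Members, lists and tests were chosen with earlier results of these data known. Named were all members, their 3 most similar genes, and from each list the most abundant called and uncalled genes of a tissue; others are said to be chosen after their values were seen. Lep was not matched among the adipocyte markers, nor Acsl3 among the activation genes. No multi-sample table was used. Shares have Clopper-Pearson intervals (scipy 1.17.1).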

Additional observations from a re-analysis of the deposited data

Results flagged for a closer look

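Tags of codes 11 to 16, taken as the reverse strand, were left out of the levels. The members had counts there above the 3 that a count of 0 allows: 4667 for Scd1, 4255 for Scd2, 1045 for Elovl5, 498 for Fasn, 206 for Elovl3 and 147 for Elovl6. They came to 34.9% of the sense counts for Scd1, 58.6% for Scd2, 32.8% for Elovl5, 6.57% for Fasn, 22.2% for Elovl3 and 29.0% for Elovl6. Of the 206 for Elovl3, 203 lay in male liver and 1 in female liver. For Scd2, 1354 and 1248 lay in the female and male spinal cord, 728 and 797 in hippocampus and 3 and 4 in liver. No tissue has 4 or more libraries, so single libraries could not be tested as outliers.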

How the results depend on the processing

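No paired analysis was possible because the labels give no replicate numbers. Of the members' folds, 820 kept their direction and side of the threshold under the alternatives, 24 passed it, 12 no longer did and 8 changed sign; of the counts of members called, 204 stayed within 1.5 times and 20 did not. Scaling by library totals called 5 members in pancreas and 4 in spinal cord, turned Scd1 in pancreas to -2.45, and moved all-gene calls in pancreas from 1405 to 10328. Over all genes, calls higher and lower went from 2882 and 2105 to 4677 and 1212 (bone marrow), from 4116 and 1891 to 7884 and 572 (hippocampus), and from 4004 and 1273 to 8381 and 241 (spinal cord). For stomach they went from 2631 and 577 to 3991 and 199, for parotid from 1629 and 567 to 829 and 2361, and for pancreas from 929 and 476 to 213 and 10115. DESeq2 gave 2318 and 2337 in liver, from 2709 and 1480, and 2630 and 3062 in bone marrow. Without the filter on low counts 2 members were called in pancreas and 1 between the sexes over 7 tissues, where all-gene calls went from 9 to 63 and in liver from 3 to 62. DESeq2 called 1 member between hippocampus and spinal cord, and 27 genes between the sexes in liver. With the leading tag alone 0 members were called between the sexes in liver, and Scd2 in pancreas was 0.16. The cause of these changes was not tested.

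Leaving out single libraries gave 3 to 4 members called in bone marrow, 1 to 2 in hippocampus, 4 to 5 in liver, 0 to 3 in pancreas, 2 to 4 in parotid, 1 to 3 in spinal cord and 1 to 2 in stomach. It gave 0 to 2 between hippocampus and spinal cord, 0 to 1 between the sexes over 7 tissues and 1 to 3 in liver. Scd2 in pancreas ran from -1.63 to 0.25, Fasn between hippocampus and spinal cord from -0.61 to 0.0524, and over the 7 tissues Scd2 from -0.0402 to 0.29 and Elovl6 from -0.49 to 0.0894. All-gene calls ran from 571 to 2209 in pancreas, from 1004 to 3089 in parotid, from 3046 to 5106 in stomach (3208 with all libraries), from 300 to 2232 between hippocampus and spinal cord, and from 9 to 121 between the sexes over 7 tissues. They ran from 10 to 283 between the sexes in liver (3 with all libraries) and from 2 to 21 in parotid (1 with all). For liver minus the other 6 tissues they ran from 0 to 129 and for parotid minus the others from 1 to 13, each 1 with all libraries. Sex within a tissue could not be fitted without that tissue's libraries. Summing both strands and giving mean levels as CPM in place of TMM were chosen after seeing the data. Rare members are limited by depth, since Elovl6 had 1 count in pancreas.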

Other observations

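A tag of Scd1 that differs from the leading one by the single change A18C (position counted from 1 at the 5′ end of the GATC site), GATCtggttgtactgtccaa, had 160 counts in female liver and 73 in female stomach. It had 0 in male liver, 1 in male stomach and at most 3 in every other library, while the leading tag had 2469 counts in male liver and 340 in male stomach.

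The second Scd1 tag, GATCctcagcagaggtattc, had 205 and 214 counts in female and male liver and 87 and 48 in parotid, but 3 in female stomach against 25 in male stomach, where the leading tag had 817 and 340. In Scd2 the leading tag held 63.7% (95% exact interval 61.4 to 65.9) of the counts in female and 77.5% (75.7 to 79.2) in male spinal cord, and 80.6% and 79.5% in hippocampus. Why the mixtures of tags differ between libraries of 1 tissue was not tested.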
